A study of Homo sapiens with 36 samples.

Results

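Fatty acid synthesis and desaturation genes were followed through retinoic acid and statin treatment of NB4 cells, a human line derived from acute promyelocytic leukaemia. The set was a list of 10 gene symbols: ACLY, ACACA, FASN, SCD, ELOVL6, FADS1, FADS2, ACSL1, ACSL3 and G0S2. Each gene was read from its brightest probe. A probe with the right symbol was found for 9 of the 10, and all 9 were among the 15308 genes tested. ACSL3 was not analysed here.

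Fatty acids are built in the cytosol from citrate that leaves the mitochondria. ATP citrate lyase (ACLY) splits citrate into acetyl-CoA, acetyl-CoA carboxylase (ACACA) turns part of it into malonyl-CoA, and fatty acid synthase (FASN) joins these units into palmitate. ELOVL6 lengthens palmitate to stearate, SCD places a double bond in the saturated chain, and FADS1 and FADS2 desaturate polyunsaturated chains. ACSL1 activates long fatty acids by attaching them to coenzyme A, and G0S2 binds and inhibits the triglyceride lipase PNPLA2. Many of these genes are targets of SREBP transcription factors, which are released when sterols run low, and statins block the mevalonate pathway that feeds sterol synthesis. ATRA (all-trans retinoic acid) drives NB4 cells to mature towards neutrophils.

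The 36 arrays formed 12 groups of 3: untreated control cells, ATRA, atorvastatin and the combination, each at 8, 24 and 48 h. Per the labels, ATRA was given 1 h before atorvastatin. The labels as used here gave no dose and no vehicle for the controls. All groups came from this single cell line grown in medium with fetal bovine serum, which itself carries lipids. The 3 arrays of a group came from 3 experiments done on different days, and total RNA was labelled with biotin and hybridised to Illumina Sentrix Human-6 bead arrays. The study asked whether adding the statin to ATRA changes the genes that accompany maturation.

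Of 9 measured promyelocyte and myeloid markers, 7 lay above the 90th percentile of all probes (8.57) in control cells, led by MPO at 14.80 and CTSG at 13.63, while ELANE at 6.56 and LYZ at 7.11 were near the 50th percentile of 6.33. None of 4 adipocyte markers or 4 hepatocyte markers had a control mean above 8, and the summed level of the adipocyte markers ran from 25.67 to 26.55 in control and from 25.56 to 26.06 in the combination. Of 4 lymphoid, 2 erythroid and 5 epithelial and stromal markers, CD3D (10.00), KRT18 (8.50) and EPCAM (8.19) had control means above 8. The summed lymphoid markers ran from 29.54 to 30.58 in control and from 28.34 to 29.24 in the combination, and their part in the results was not tested. The raw median intensity per array ran from 78.5 to 185.4 and was highest in experiment 1 without ATRA, at 152.2 to 185.4 against 101.8 to 118.2 with ATRA. The part of this intensity in the results was not tested.

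A pair of libraries went against their labels in genes that respond to the agents. In experiment 1 at 24 h, the library labelled ATRA had NCF1, an ATRA-induced NADPH oxidase subunit, at 7.87, where the other experiments had 13.79 and 13.93. The library labelled atorvastatin of the same experiment and time had NCF1 at 13.64, where the others had 7.48 and 7.36. KLF2, a transcription factor induced by statins, showed the reverse, with 8.50 against 6.48 and 6.43 under the ATRA label and 6.48 against 8.86 and 9.09 under the atorvastatin label. In both genes each library resembled the group of the other label. Their raw medians did not: 118.2 under the ATRA label and 178.9 under the atorvastatin label, near the other experiment 1 arrays with and without ATRA. They were kept as labelled, and most results that rest on them are given also without both. Unadjusted counts, some other 24 h counts and the FADS1 interaction at 24 h are given on all arrays only.

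All levels below are background-corrected, quantile-normalised log2 intensities. Differences are log2 changes with their standard error, and "rose", "fell" and "called" stand for an adjusted p under 0.05 over all 15308 genes in limma, two-sided, with n = 3 arrays a group. The scale compresses changes of dim probes, and less RNA per cell cannot be told apart from fewer cells of a kind in such bulk samples.

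The promoter letters of SCD and G0S2 are shown side by side. On all arrays SCD, like ACLY, ACACA, FASN and FADS1, had no called change against control at any time. G0S2 had the widest span of group means. Both stretches are the 250 bases before the RefSeq gene start in GRCh38.p14, on the plus strand, SCD at chr10:100346983-100347232 and G0S2 at chr1:209675162-209675411. Capitals mark every match on either strand to any of 4 motifs that were searched. The NF-Y box was spelled CCAAT. The Sp1 box, bound by a general activator, was spelled GGGCGG. The box near which transcription often starts was spelled TATAA. The sterol regulatory element, a site bound by SREBP, was spelled TCACNCCAC.
SCD: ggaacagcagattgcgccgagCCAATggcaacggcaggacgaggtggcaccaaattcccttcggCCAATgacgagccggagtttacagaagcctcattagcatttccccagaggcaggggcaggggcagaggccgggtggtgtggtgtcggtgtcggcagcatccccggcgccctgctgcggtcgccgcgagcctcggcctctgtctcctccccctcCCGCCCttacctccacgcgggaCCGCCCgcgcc
G0S2: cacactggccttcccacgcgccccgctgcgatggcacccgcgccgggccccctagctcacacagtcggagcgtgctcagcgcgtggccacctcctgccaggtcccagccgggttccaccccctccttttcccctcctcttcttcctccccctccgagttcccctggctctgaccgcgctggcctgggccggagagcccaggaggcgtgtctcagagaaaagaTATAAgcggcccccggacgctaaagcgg
The SCD stretch held 2 NF-Y boxes, at 229 to 225 and 186 to 182 bases before the start, and 2 Sp1 boxes. NF-Y and Sp1 are the usual partners of SREBP at lipogenic promoters. The G0S2 stretch held neither and had a TATA box 28 to 24 bases before the start. Of 35116 RefSeq windows of the same length, 32.0% held the NF-Y box, 42.6% the Sp1 box, 18.9% the TATA box and 0.883% the sterol element. The sterol element matched in neither stretch, which says only that these letters are not in these windows. It matched in 1 ACSL1 window. Each ACLY window held 2 NF-Y boxes and the ELOVL6 window 0. Any link of these boxes to the changes was not tested. A window was found for 9 of the 10 genes, 17 windows in all.

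G0S2, the lipase inhibitor, changed more than any other member. At 48 h its level in control cells was 7.20, 6.78 and 6.74 in experiments 1 to 3, close to background. With ATRA it was 11.59, 11.64 and 11.78, and with the combination 12.85, 13.07 and 12.21. Atorvastatin alone left it at 6.57, 6.92 and 6.79. All 6 libraries with ATRA lay far above all 6 without it, and the combination lay above ATRA in each experiment. G0S2 rose 4.76 ± 0.45 with ATRA (limma adjusted p = 6.5e-09) and 5.80 ± 0.45 with the combination (9.67e-12). With control cells this close to background, the size of these rises is not exact, and no fold is given. Against atorvastatin alone the combination was 5.95 ± 0.45 higher (limma adjusted p = 1.24e-11). The change with atorvastatin alone was -0.15 ± 0.45 (adjusted p = 0.955).

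The rise of G0S2 was gradual. At 8 h control cells had 6.43, 6.88 and 6.75 and ATRA cells 7.18, 7.76 and 7.25, so every ATRA library was above every control library. That difference of 0.71 ± 0.45 did not pass the test on all arrays (limma adjusted p = 0.688) and passed it without the 2 doubted libraries (0.71 ± 0.18, 0.02). At 24 h the combination had 8.84, 8.49 and 8.50 against 6.41, 6.57 and 6.80 in control, a rise of 2.02 ± 0.45 (adjusted p = 0.00344).

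The libraries labelled ATRA at 24 h had G0S2 at 7.09, 9.51 and 9.26, and those labelled atorvastatin 9.47, 6.74 and 6.79. Experiment 1 stood apart in both groups, as it did for NCF1. As labelled, G0S2 rose 2.03 ± 0.45 with ATRA at 24 h (limma adjusted p = 0.0273), and without the 2 libraries 2.79 ± 0.20 (2.17e-12). The combination against atorvastatin at 24 h was 0.94 ± 0.45 as labelled (adjusted p = 0.427) and 1.85 ± 0.20 without them (3.07e-08). On all arrays the 24 h rises lost their call without experiment 2 (ATRA 1.57, adjusted p = 0.999, and combination 2.06, 0.0889) and without experiment 3 (1.81, 0.616, and 2.17, 0.0601), or when fitted to the 24 h arrays alone (0.484 and 0.118). All of these fits kept both doubted libraries.

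Atorvastatin added to ATRA gave a further G0S2 difference of 1.04 ± 0.45 at 48 h, with 1.26, 1.43 and 0.43 in the 3 experiments. The groups did not overlap. It did not pass the test on all arrays (limma adjusted p = 0.211) and passed it without the 2 doubted libraries, where the standard error was 0.18 (adjusted p = 0.000131). The interaction, meaning the statin difference with ATRA minus the statin difference without it, was 1.19 ± 0.64 (adjusted p = 0.633) and without the 2 libraries 1.19 ± 0.26 (0.0102). At 24 h the order was the other way in the undoubted experiments, with 8.49 and 8.50 in the combination under 9.51 and 9.26 with ATRA. That difference of -0.78 ± 0.20 without the 2 libraries did not pass the test (limma adjusted p = 0.161).

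**Figure D1:**
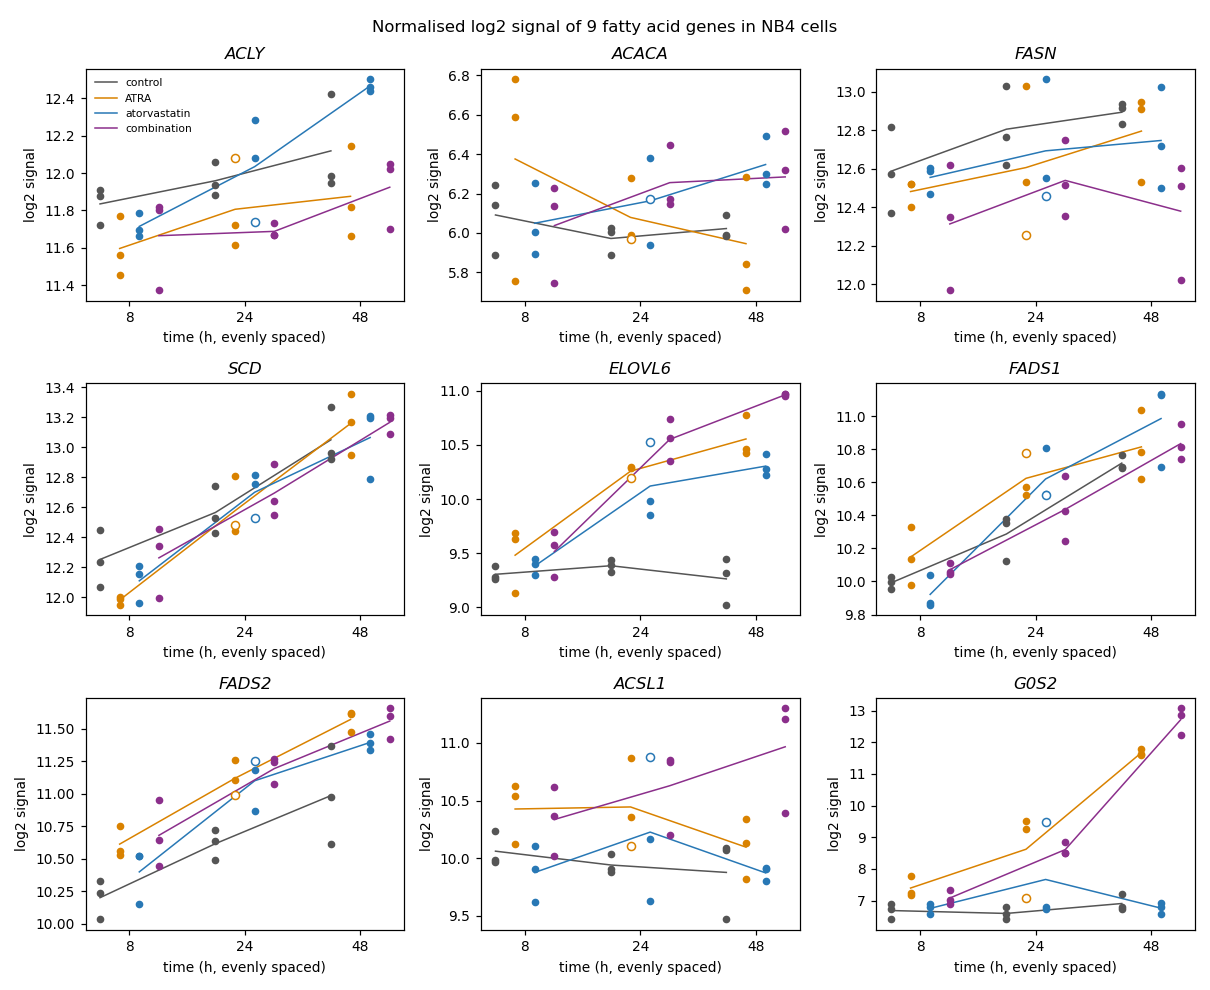
Normalised log2 intensity of the 9 measured genes (y axis) at 8, 24 and 48 h (x axis) in the 4 arms. Points are single arrays, lines join group means, and open circles are the 2 libraries that went against their labels. G0S2 climbs from about the background to 11.67 with ATRA and 12.71 with the combination at 48 h. ELOVL6 separates treated from control cells at 24 and 48 h but not at 8 h, and SCD moves with time in every arm.

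ELOVL6, the palmitate elongase, was the only member to rise with each agent alone at 48 h. Control cells had 9.32, 9.03 and 9.44. ATRA cells had 10.78, 10.46 and 10.42, atorvastatin cells 10.27, 10.22 and 10.42, and combination cells 10.97, 10.97 and 10.95. Every treated library was above every control library, and the combination was above either agent alone. ELOVL6 rose 1.29 ± 0.15 with ATRA (2.45-fold, limma adjusted p = 5.49e-07). It rose 1.04 ± 0.15 with atorvastatin (2.06-fold, 8.23e-05) and 1.70 ± 0.15 with the combination (3.25-fold, 1.94e-10).

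At 8 h ELOVL6 lay between 9.13 and 9.69 in all 12 libraries, and no difference was called. At 24 h it was 9.43, 9.33 and 9.39 in control and 10.74, 10.35 and 10.57 in the combination, a rise of 1.17 ± 0.15 (limma adjusted p = 6.44e-06). The libraries labelled ATRA had 10.19, 10.29 and 10.29, a rise of 0.87 ± 0.15 (adjusted p = 0.00492), or 0.91 ± 0.15 without the 2 doubted libraries (0.00011). The libraries labelled atorvastatin had 10.53, 9.98 and 9.86. That difference of 0.74 ± 0.15 missed the threshold (limma adjusted p = 0.0715) and passed it with the experiment as a block (0.024), but was 0.53 ± 0.15 without the 2 doubted libraries (0.206). With the statin alone ELOVL6 was thus called on all arrays at 48 h and not at 24 h.

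The combination exceeded atorvastatin alone for ELOVL6 by 0.66 ± 0.15 at 48 h (limma adjusted p = 0.00186, and 1.22 under median scaling). At 24 h that lead was 0.43 ± 0.15 (0.186), called without the 2 doubted libraries (0.63 ± 0.15, 0.00704) and under median scaling (0.84, 0.00386). At 48 h the combination exceeded ATRA alone by 0.41 ± 0.15, with 0.19, 0.51 and 0.52 in the 3 experiments, and this did not pass the test (adjusted p = 0.119). Median scaling gave 0.64 for this lead over ATRA (0.0323), and the experiment block without the 2 doubted libraries 0.41 (0.0389). The interaction was -0.63 ± 0.21 at 48 h, negative in all 3 experiments, with an unadjusted p = 0.00567 and a limma adjusted p = 0.27. It did not pass the correction, and under median scaling it was -0.20 (0.794). Without experiment 2 the 48 h rise with atorvastatin (0.97, limma adjusted p = 0.0834) and the lead of the combination over atorvastatin (0.61, 0.0765) lost their calls. The 24 h rise with ATRA lost its call without experiment 2 (0.83, 0.994) or 3 (0.86, 0.212) and on the 24 h arrays alone (0.19).

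FADS2, the delta-6 desaturase that opens the polyunsaturated pathway, rose by less. At 48 h it was 11.37, 10.97 and 10.62 in control, 11.61, 11.48 and 11.62 with ATRA, 11.46, 11.39 and 11.33 with atorvastatin, and 11.60, 11.42 and 11.66 with the combination. The 3 control libraries spread more widely than any treated group, and all libraries with ATRA were above them. FADS2 rose 0.59 ± 0.15 with ATRA (limma adjusted p = 0.00926) and 0.57 ± 0.15 with the combination (0.0044). Atorvastatin alone gave 0.41 ± 0.15 (adjusted p = 0.227), and 0.20 under median scaling (0.692). The combination and ATRA differed by -0.01 ± 0.15. Median scaling gave 0.94 for the combination against control and called its lead over atorvastatin (0.74, limma adjusted p = 7.42e-05), which was 0.16 ± 0.15 here (0.572).

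At 24 h the combination had FADS2 at 11.24, 11.27 and 11.07 against 10.64, 10.72 and 10.49 in control, a rise of 0.58 ± 0.15 (limma adjusted p = 0.0132). ATRA at 24 h gave 0.50 ± 0.15 (0.127), which passed without the 2 doubted libraries (0.57 ± 0.17, 0.0445) and under median scaling (0.80, 0.00099). The 48 h calls rested on experiment 3, whose control was lowest: without it the rise was 0.37 with ATRA (limma adjusted p = 0.272) and 0.34 with the combination (0.201). Both 48 h calls were also lost without experiment 2 (0.116 and 0.0516) and in the authors' deposited log2 values (0.0779 and 0.0566). The 24 h rise with the combination lost its call without any 1 experiment (limma adjusted p from 0.0655 to 0.202).

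FADS1, the delta-5 desaturase encoded beside FADS2, showed no called change with either agent. At 48 h control cells had 10.77, 10.69 and 10.69 and combination cells 10.95, 10.81 and 10.74. The difference of 0.12 ± 0.13 did not pass the test (limma adjusted p = 0.626), and under median scaling it was 0.49 (0.0699). At 24 h its interaction was -0.52 ± 0.18, with -0.49, -0.46 and -0.61 in the 3 experiments and an unadjusted p = 0.00795, and no gene of the array passed the adjusted test in that comparison.

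SCD, the stearoyl-CoA desaturase, had no called change with either agent. At 48 h it was 12.96, 12.92 and 13.27 in control, 13.17, 12.95 and 13.36 with ATRA, 12.79, 13.19 and 13.21 with atorvastatin, and 13.19, 13.08 and 13.22 with the combination. The 4 groups overlapped fully. The changes were 0.11, 0.02 and 0.12 with ATRA, atorvastatin and the combination, each ± 0.15 (limma adjusted p = 0.786, 0.988 and 0.675). Median scaling gave 0.32, -0.23 and 0.42 (0.511, 0.773 and 0.138), with the sign turned for atorvastatin. Under it the combination was 0.65 above atorvastatin alone (adjusted p = 0.0135), where quantile normalisation gave 0.10 (0.757).

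ACSL1, the acyl-CoA synthetase, was raised by the combination and by neither agent alone at 48 h. Control cells had 10.09, 9.47 and 10.07, ATRA cells 10.13, 10.34 and 9.82, and atorvastatin cells 9.91, 9.80 and 9.91. Combination cells had 11.20, 11.30 and 10.40. All 3 combination libraries were above all 9 others, experiment 3 by the least. ACSL1 rose 1.09 ± 0.25 against control (2.13-fold, limma adjusted p = 0.00121), 1.09 ± 0.25 against atorvastatin (0.0017, and 1.66 under median scaling) and 0.87 ± 0.25 against ATRA (0.0274). ATRA alone gave 0.22 ± 0.25 (adjusted p = 0.732), and atorvastatin alone gave -0.00 ± 0.25 (0.999). Median scaling gave 0.36 and -0.19 for these (0.641 and 0.892).

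The interaction for ACSL1 at 48 h was 0.87 ± 0.35, with 1.25, 0.63 and 0.74 in the 3 experiments. It did not pass the test (unadjusted p = 0.0183, limma adjusted p = 0.429), so a response particular to the combination was not shown. A second ACSL1 probe, dimmer and not used in the fit by gene, gave 1.18 for the combination against control and 0.91 against ATRA. At 24 h combination cells had ACSL1 at 10.83, 10.86 and 10.20 against 9.90, 9.88 and 10.04 in control. That difference of 0.69 ± 0.25 passed only without the 2 doubted libraries, under median scaling or with both probes averaged (limma adjusted p = 0.109 on all arrays, 0.0434, 0.0174 and 0.0108).

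Without experiment 2 the 48 h rise of ACSL1 against control was 0.72 (limma adjusted p = 0.0873). Its lead over ATRA was 0.77 without experiment 1 (0.201), 0.82 without experiment 2 (0.145) and 0.84 in the authors' deposited log2 values (0.0535).

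**Figure D2:**
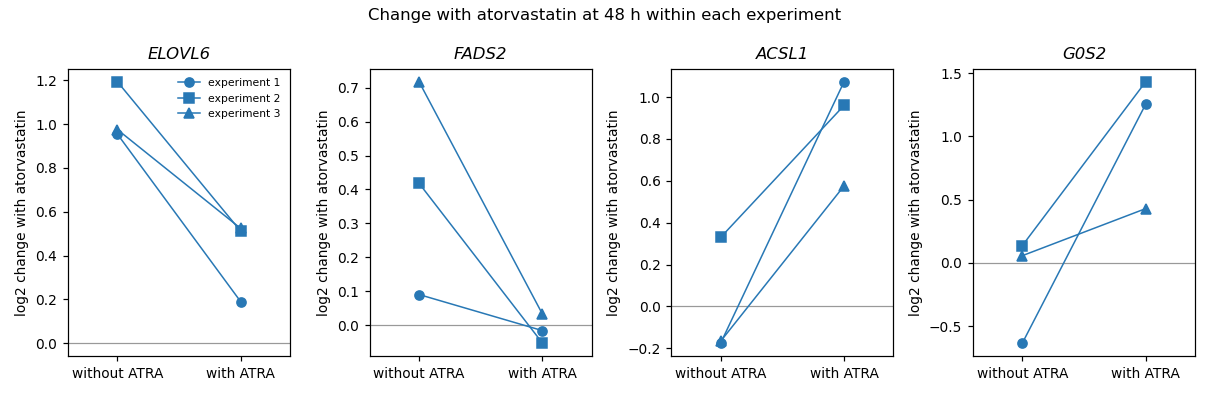
Log2 change with atorvastatin at 48 h (y axes differ between panels) in cells without and with ATRA (x axis) for ELOVL6, FADS2, ACSL1 and G0S2, with 1 line per experiment. For ACSL1 and G0S2 the change is larger with ATRA in each experiment, from 0.58 to 1.07 and from 0.43 to 1.43, against -0.18 to 0.33 and -0.64 to 0.14 without it, and for ELOVL6 and FADS2 it is smaller with ATRA.

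Among the enzymes of synthesis proper, FASN was lower in the combination. At 48 h control cells had 12.83, 12.91 and 12.93, and combination cells 12.61, 12.02 and 12.51. The groups did not overlap, and experiment 2 gave the largest part of the gap. The change of -0.51 ± 0.19 was just short of the threshold (limma adjusted p = 0.0515). It passed without the 2 doubted libraries (0.0341) and with the experiment as a block (0.0381). It was -0.33 without experiment 2 (limma adjusted p = 0.352) and -0.19 under median scaling (0.589). With ATRA alone FASN was 12.53, 12.91 and 12.95, a change of -0.10 ± 0.19 (0.866), and 0.09 under median scaling (0.925).

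No change of ACLY against control was called. At 48 h it was 11.98, 11.95 and 12.42 in control, 12.14, 11.82 and 11.66 with ATRA, 12.46, 12.44 and 12.50 with atorvastatin, and 12.05, 11.70 and 12.02 with the combination. The atorvastatin libraries were above all 9 others, but their lead over control, 0.35 ± 0.15, did not pass the test (limma adjusted p = 0.359) and was 0.13 under median scaling (0.916). Combination cells were below atorvastatin cells by -0.54 ± 0.15 (limma adjusted p = 0.0112), whereas median scaling turned the sign to 0.048 (0.93), and the call was lost without experiment 2 (-0.44, 0.266). Median scaling shifted the median of all genes by 0.15 in that comparison, by 0.10 in the combination against control and by 0.16 in the interaction at 48 h.

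ACACA lay between 5.71 and 6.78 on all 36 arrays and exceeded its own array's median on only 6. Its probe targets a single transcript form, and no difference of ACACA was called. At this signal a fall in the gene would not be detectable.

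**Figure D3:**
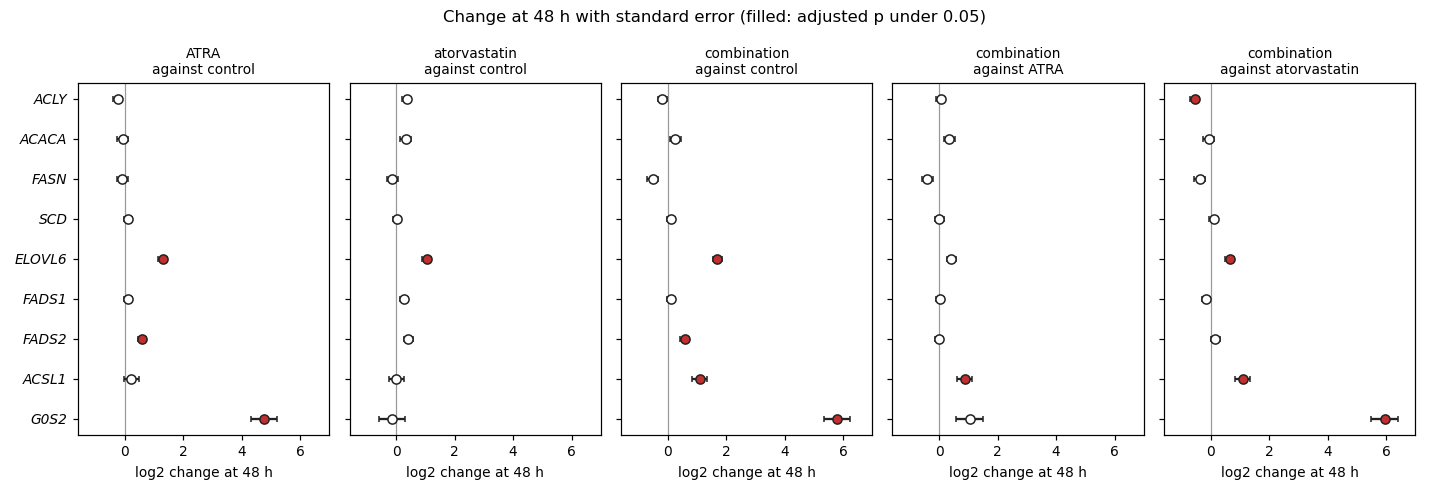
Log2 change at 48 h (x axis, bars are standard errors) for the 9 genes in 5 panels: ATRA, atorvastatin and the combination against control, and the combination against each agent alone, 3 arrays a group. Filled points passed the test. Against control, G0S2, ELOVL6 and FADS2 are filled for ATRA, ELOVL6 alone for atorvastatin, and G0S2, ELOVL6, ACSL1 and FADS2 for the combination. Against ATRA only ACSL1 is filled, and against atorvastatin ACSL1, ELOVL6 and G0S2 are filled above 0 and ACLY below it.

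Counted over the set, some members rose with ATRA or the combination at 24 and 48 h, and ELOVL6 with atorvastatin at 48 h. ACLY, ACACA, FASN, SCD and FADS1 rose with no treatment against control at either time. The list was chosen with earlier results of these data known. With ATRA 3 of 9 rose at 48 h, where 4.04% of all genes did, and 2 of 9 at 24 h, where 0.438% did. Atorvastatin raised 1 of 9 at 48 h (0.496% of all genes), and the combination raised 4 of 9 at 48 h (9.66%) and 3 of 9 at 24 h (3.52%). No member fell with ATRA or the combination at 48 h, where 3.96% and 10.7% of all genes fell. The median change of the 9 in the combination at 48 h was 0.26, against -0.01 for all genes, and with ATRA 0.11 against -0.01.

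Against ATRA, the combination raised 1 of 9 at 48 h (3.42% of all genes). Against atorvastatin it raised 3 (7.10%) and lowered 1 (7.74%) at 48 h. Under median scaling it raised 5 and lowered 0 against atorvastatin, where 19.6% of all genes rose and 0.875% fell. Without the 2 doubted libraries the combination raised 2 against ATRA (4.11%), raised 3 and lowered 1 against atorvastatin (7.59% and 8.34%) and raised 4 and lowered 1 against control (10.1% and 11.3%), all at 48 h. Without them ATRA raised 1 at 8 h (1.57%) and 3 at 24 h (2.63%), and the combination at 24 h raised 4 against control (4.40%) and 2 against atorvastatin (3.26%). The members called there and not on all arrays were G0S2, FADS2, ACSL1 and ELOVL6, all higher, and FASN, lower.

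No member was called by limma at 8 h with ATRA (1.42% of all genes called), atorvastatin (0.00653%) or the combination (1.31%). At an unadjusted p under 0.05 these counts were 1, 0 and 1 of 9, the 1 being FADS2 each time, at 0.41 ± 0.15 with ATRA and 0.48 ± 0.15 with the combination, the latter called under median scaling (0.59, adjusted p = 0.0156). None was called with atorvastatin at 24 h (0.0327%, 4 of 9 unadjusted), or for the combination against ATRA at 8 h (0.00653%, 0 of 9) and 24 h (0.0131%, 0 of 9). The same held for the combination against atorvastatin at 8 h (1.16%, 0 of 9) and 24 h (1.47%, 3 of 9). G0S2 was 1 of the 4 with atorvastatin at 24 h, through the doubted library alone (3.06, 0.17 and -0.01 in experiments 1 to 3). Here and below, percentages of all genes are shares at the adjusted threshold. No such share is given for the unadjusted counts. These have no background beside them and are not read as a result about the members or lists.

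The limma interaction called no member at 8 h (0% of all genes, 1 of 9 unadjusted), 24 h (0%, 2 of 9) or 48 h (0.536%, 2 of 9, ELOVL6 and ACSL1). Without the 2 doubted libraries it called 1 at 48 h, which was G0S2, where 0.888% of all genes were called higher.

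Time in culture moved a partly different subset, with FADS2 in both. Between 8 and 48 h in untreated cells, SCD went from 12.24, 12.45 and 12.07 to 12.96, 12.92 and 13.27. It rose 0.80 ± 0.15 in control (limma adjusted p = 0.000975), 1.18 in ATRA (1.89e-06), 0.96 in atorvastatin (0.000121) and 0.90 in the combination (2.24e-05). The 3 libraries at 48 h lay above those at 8 h in each arm. FADS1 went from 10.00, 10.03 and 9.95 to 10.77, 10.69 and 10.69 in control, a rise of 0.72 ± 0.13 (limma adjusted p = 0.000843), and rose 0.67, 1.06 and 0.76 in ATRA, atorvastatin and the combination. FADS2 rose 0.78 ± 0.15 in control (0.00149) and 0.96, 1.00 and 0.88 in the treated arms. SCD, FADS1 and FADS2 thus rose over time with and without either agent. FADS3, a related desaturase outside the set, changed the other way, by -0.59 ± 0.20 in control (limma adjusted p = 0.0883) and -0.61 ± 0.20 with ATRA (0.0593). Both falls were called without the 2 doubted libraries (0.0169 and 0.00764).

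ELOVL6 did not share this drift in control cells, with -0.04 ± 0.15 (limma adjusted p = 0.949). It rose 1.07 with ATRA, 0.92 with atorvastatin and 1.45 with the combination between 8 and 48 h. G0S2 likewise changed by 0.22 ± 0.45 in control (0.902) and rose 4.28 with ATRA and 5.63 with the combination. ACLY rose over time with atorvastatin alone, from 11.66, 11.79 and 11.70 to 12.46, 12.44 and 12.50. That rise of 0.75 ± 0.15 (limma adjusted p = 0.00327) was lost under median scaling (0.41, 0.404), without experiment 2 (0.80, 0.13) and on that arm's arrays alone (0.0528).

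In all, 3 of 9 rose over time in control (1.90% of all genes rose), and 5 of 9 each in ATRA (3.10%), atorvastatin (1.55%) and the combination (7.75%), 6 of 9 in the last without the 2 doubted libraries (8.42%), the sixth being ACSL1. Under median scaling the control rises of SCD (0.69, limma adjusted p = 0.08) and FADS1 (0.61, 0.137) and the atorvastatin rises of SCD (0.59, 0.115) and ELOVL6 (0.65, 0.0696) missed the threshold. Leaving out an experiment cost the control calls of SCD (without experiment 3, 0.60, limma adjusted p = 0.108) and FADS2 (without experiment 1, 0.66, 0.0537, and without 2, 0.81, 0.105), and the ATRA call of FADS1 (without 1, 0.55, 0.0754, and without 3, 0.60, 0.0622).

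**Figure D4:**
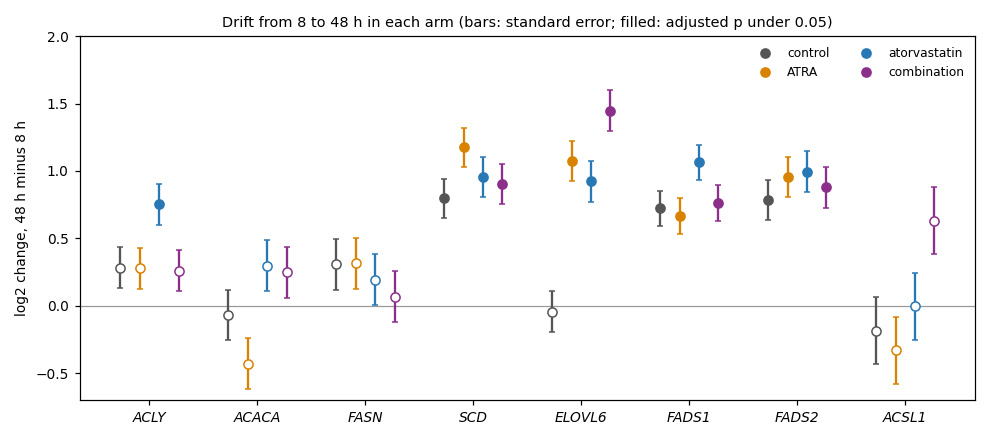
Log2 change from 8 to 48 h (y axis, bars are standard errors) of 8 genes (x axis) in each of the 4 arms, 3 arrays a group, with G0S2 left out for its scale. Filled points passed the test. SCD, FADS1 and FADS2 are filled in every arm, ELOVL6 in the 3 treated arms only, and ACLY with atorvastatin only.

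Across the 12 group means, without the 2 doubted libraries, SCD and FADS1 had a Pearson r of 0.94, FADS1 and FADS2 of 0.91, and ELOVL6 and FADS2 of 0.88, while FASN and ACSL1 had -0.59. These describe groups that share experiments and times. Among about 1530 genes whose group means spanned at least 1 log2 unit, those most like G0S2 were TNFSF13B (r = 0.99), S100A9 (0.99) and LAMB3 (0.98). ELOVL6 was most like TYK2 (0.97), CMTM6 (0.96) and APAF1 (0.95). ACSL1 was most like AOC1 (0.95), PECAM1 (0.94) and SH3BP2 (0.94), SCD like ACAP1 (0.95), ARHGAP15 (0.95) and PCYOX1L (0.94), and FASN like GART (0.94), SLC43A1 (0.93) and PXK (0.92).

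The related lists were counted at 48 h, where the shares of all genes given above are the background. Under median scaling these shares were 4.11% higher and 0.980% lower with ATRA, and 16.0% higher and 2.21% lower with the combination. With atorvastatin 1.12% were higher and 0.588% lower without the 2 doubted libraries. SREBF1, which encodes the SREBP form that favours lipogenic genes, averaged 9.05 in control and 9.95 with ATRA, a rise of 0.90 ± 0.21 (limma adjusted p = 0.0046) that was not called without experiment 2 (0.98, 0.054) or 3 (0.90, 0.0858). It was 8.82 with atorvastatin, a change of -0.23 ± 0.21 (0.78), and 9.62 with the combination (0.58 ± 0.21, 0.0517, and 0.000667 without the 2 doubted libraries). SREBF2, which encodes the form that favours sterol genes, changed by 0.23, 0.50 and 0.58 with ATRA, atorvastatin and the combination, each ± 0.24, and was not called on all arrays. Without the 2 doubted libraries its change with the combination was called (0.58, limma adjusted p = 0.00834). INSIG1, an SREBP target that holds SREBP in the endoplasmic reticulum, rose 0.83 ± 0.23 with the combination (limma adjusted p = 0.00838), but not without experiment 2 (0.76, 0.162). Of 13 measured SREBP and lipogenic regulators, 1 rose with ATRA, 0 were called by limma with atorvastatin (3 at an unadjusted p under 0.05) and 1 rose with the combination. With the combination 4 rose and 1 fell without the 2 doubted libraries, and 5 rose and 0 fell under median scaling.

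Of 7 NADPH and precursor genes measured, 2 rose with ATRA and 2 with the combination, in both cases PGD and IDH1, and the other 5 were not called. PGD, a pentose phosphate enzyme that makes NADPH, rose 1.80 ± 0.24 with ATRA (limma adjusted p = 4.4e-06) and 1.93 ± 0.24 with the combination (1.83e-07), and kept both calls with any 1 experiment left out. IDH1, another cytosolic source of NADPH, rose 0.82 ± 0.17 with ATRA (0.00158) and 1.15 ± 0.17 with the combination (4.77e-06). Its ATRA call was lost without experiment 2 (0.74, limma adjusted p = 0.0706) or 3 (0.73, 0.0906).

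Of the 12 other elongation and desaturation genes measured, 0 were called by limma with ATRA (2 at an unadjusted p under 0.05), 1 rose with atorvastatin, and 2 rose and 1 fell with the combination (3 and 0 under median scaling). FADS3, of the same desaturase family, rose 0.92 ± 0.20 with atorvastatin (limma adjusted p = 0.0131), but was not called without experiment 2 (0.88, 0.293) or 3 (0.95, 0.071) or under median scaling (0.78, 0.226). ELOVL1, an elongase of very long chains, rose 0.57 ± 0.15 with the combination (0.00479, and 0.122 without experiment 2).

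Of 15 acyl-CoA synthetase and uptake genes, 1 rose and 1 fell with ATRA, and 2 rose and 3 fell with the combination. Under median scaling 1 rose and 0 fell with ATRA, and 6 rose and 2 fell with the combination. ACSL5, a relative of ACSL1, rose 1.16 ± 0.25 with ATRA (limma adjusted p = 0.00166) and 0.80 ± 0.25 with the combination (0.0187). Both calls were lost without experiment 2 (1.15, 0.0989, and 0.72, 0.25), and that of the combination also without experiment 3 (0.66, 0.143) and as the mean over its probes (0.30, 0.0921). CD36, a fatty acid uptake receptor, rose 0.71 ± 0.13 with the combination (limma adjusted p = 8.55e-05) from a control mean of 6.23, under the 50th percentile of all probes, so the size of its rise is not exact. The transport proteins SLC27A2 and SLC27A5 fell there (-1.37 ± 0.17, limma adjusted p = 2.51e-07, and -0.90 ± 0.13, 2.42e-06). These 3 kept their calls with any 1 experiment left out. SLC27A5 alone of the 15 passed the interaction test (-0.78 ± 0.18, limma adjusted p = 0.0346). That call was lost without any 1 experiment (0.271 to 0.325), on the 48 h arrays alone (0.174) and under median scaling (-0.43, 0.515).

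Lipid droplet and lipolysis genes are the setting in which G0S2 acts. Of 16 measured, 2 rose with ATRA, 1 rose with atorvastatin, and 5 rose and 2 fell with the combination. Under median scaling 1 rose with ATRA, 0 were called with atorvastatin, and 5 rose and 1 fell with the combination. HILPDA, another inhibitor of the lipase PNPLA2, averaged 9.05 in control and 7.80 with the combination and fell there (-1.24 ± 0.17, limma adjusted p = 9.47e-07), opposite to G0S2, with any 1 experiment left out as well. With atorvastatin it changed by -0.65 ± 0.17 (0.0604), a fall that was called without the 2 doubted libraries (0.0423). AGPAT2, an enzyme of triglyceride synthesis, rose 0.55 ± 0.17 with ATRA, 0.67 ± 0.17 with atorvastatin and 0.67 ± 0.17 with the combination (limma adjusted p = 0.0383, 0.0486 and 0.00346). Its combination call was lost without experiment 1 (0.52, 0.0787) or 2 (0.65, 0.0574), its atorvastatin call without experiment 1 (0.32, 0.717) or 2 (0.84, 0.212), and its ATRA call without any 1 experiment (0.0717 to 0.274).

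Of 16 genes counted from the fatty acid oxidation list, 1 rose and 2 fell with ATRA, and 1 rose and 1 fell with the combination. PPARG, a regulator on that list, was 1 of the 2 that fell with ATRA. Under median scaling 2 rose and 1 fell with ATRA, and 4 rose and 0 fell with the combination. SLC25A20, the mitochondrial acylcarnitine carrier, rose 0.79 ± 0.15 with ATRA (limma adjusted p = 0.000516) and 0.93 ± 0.15 with the combination (1.69e-05). HADH, an enzyme of the oxidation spiral, fell with the combination (-0.98 ± 0.13, 4.48e-07), though under median scaling its change was -0.58 (0.0589). PPARG, a nuclear receptor that drives lipid storage genes, fell with ATRA (-0.88 ± 0.17, limma adjusted p = 0.000539) and was 1.22 ± 0.17 higher with the combination than with ATRA (8.09e-06). These calls held with any 1 experiment left out.

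Of 16 sterol genes, a pathway that statins act on, limma called 0 with atorvastatin (7 at an unadjusted p under 0.05), though their median change was 0.36 against -0.00 for all genes, and 4 rose without the 2 doubted libraries. HMGCS1, an early enzyme of sterol synthesis, averaged 8.74 in control and 9.87 with atorvastatin (1.13 ± 0.33, limma adjusted p = 0.0978, and 1.43e-06 without those libraries). SQLE, squalene epoxidase, gave 0.23 ± 0.22 (0.78). With the combination 3 of 16 rose against control (6 without those libraries, 7 under median scaling), and 3 rose against ATRA (5 without those libraries). Against ATRA, HMGCS1 rose 1.30 ± 0.33 (limma adjusted p = 0.0101), a call lost without experiment 2 (1.24, 0.253) or 3 (1.27, 0.0841).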

How the data were processed

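The authors deposited 1 raw table per array, holding the mean bead intensity per probe that BeadStudio 1.3.1.5 gave without background correction, per the labels, and 1 series table of log2 values whose exact normalisation is not given in the sources used here. Each of the 36 deposited log2 columns correlated best with its own array, with column medians from 6.68 to 6.69. Here the intensity values went through limma 3.58.1 (R 4.3.3): normexp correction fitted to the signals with an offset of 50, log2, then quantile normalisation. Of 47293 probes, 18468 carried 1 gene symbol in the platform annotation, and the other 28825 did not and were left out of the fit by gene. A probe stayed in if 3 or more arrays had it brighter than their median (17227 named probes), and the brightest probe stood for a gene, giving 15308 genes. Where a gene had several probes (1439 genes), their mean was an alternative. No detection values were used.

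A linear model of 12 group means over all 36 arrays, with 24 residual degrees of freedom and moderated by eBayes, gave 22 comparisons, each adjusted by Benjamini-Hochberg over all 15308 genes. The number of arrays limits the precision. Arrays of a group correlated at 0.965 to 0.993, and 0 pairs of arrays were identical. On simulated arrays for the combination against control at 48 h, the fit of 15308 genes called 28.4%, 97.0% and 100.0% of genes changed by 0.5, 1 and 2 log2 units, with 8 false among 158 calls. The simulated spread was that of the fit without the 2 doubted libraries, with no shared experiment effect. These shares therefore do not hold on all arrays for genes whose spread is wider there, such as G0S2 (standard error 0.45 against 0.18).

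The replicate is the experiment, taken from the runs of sample numbers in the titles, as the series text names 3 independent experiments on different days. Differences given per experiment pair the arrays by this shared day. The main fit did not use the pairing, which entered as a block only in the replicate block alternatives. Deviations from group means in the same experiment correlated at a median of 0.17 (-0.15 to 0.43, 135 pairs of groups without a doubted library) and in other experiments at -0.10 (270 pairs). Whether experiments were separate cultures is not stated further.

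The members, gene lists and tests were chosen with earlier results of these data known. Eligible to be named besides the members were called genes of 7 related lists at 48 h (up to 5 in each direction per comparison; some of those that lost their call without an experiment are given only in the counts), SREBF1, SREBF2, HMGCS1, SQLE and INSIG1, and for 5 members the 3 genes of highest r. PNPLA2 and some other list genes were not analysed here. Promoter letters are from RefSeq (GRCh38.p14), searched on both strands. No coordinate of that build was used for an array value.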

Additional observations from a re-analysis of the deposited data

Results flagged for a closer look

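SLC27A5, a fatty acid transport protein, stood out because the atorvastatin effect differed between cells with and without ATRA at 48 h, by -0.78 ± 0.18 in the interaction test (limma adjusted p = 0.0346). It averaged 7.54 with the combination, 8.31 with ATRA, 8.45 with atorvastatin and 8.44 in control. The call was lost with any 1 experiment left out (-0.83 to -0.73, limma adjusted p from 0.271 to 0.325), on the 48 h arrays alone (0.174) and under median scaling (-0.43, 0.515).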

How the results depend on the processing

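Of 51 changes of members that were called in at least 1 setting, examined under 13 alternatives, 3 changed direction somewhere. ACLY in the combination against atorvastatin at 48 h went from -0.54 to 0.048 under median scaling. SCD in that comparison, 0.10 and not called, was -0.093 in the authors' deposited log2 values and -0.051 to 0.21 with 1 experiment left out, lowest without experiment 1. FADS2 at 24 h in that contrast, 0.09 and not called, was -0.037 in the authors' values and -0.061 to 0.20 with 1 experiment left out, lowest without experiment 2. All 51 kept their direction and side of the threshold without the filter on dim probes, and 37 to 50 did so under each other alternative. Of 45 called changes of list genes at 48 h, 45 kept their call without the 2 doubted libraries and with the replicate block, 33 under median scaling and 19 to 27 with an experiment left out. The cause of these moves was not tested. The counts of members called, below, start from those on all arrays. The share of all genes called also moves with the setting. For the combination against atorvastatin at 48 h, 7.10% of all genes rose on all arrays and 19.6% under median scaling. No such share is given for most counts below, so they describe the calls and not a property of the set.

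With ATRA at 8 h the count went from 0 to 1 on the 8 h arrays alone, without the 2 doubted libraries, and with the replicate block without them. With ATRA at 24 h it went from 2 to 0 on the 24 h arrays alone. With atorvastatin at 24 h it went from 0 to 1 without background correction and with the replicate block. With the combination at 8 h it went from 0 to 1 under median scaling and with the replicate block without the 2 libraries. For the combination against ATRA at 48 h it went from 1 to 2 under median scaling, on the 48 h arrays alone and without the 2 libraries, to 3 with the replicate block without them, and to 0 in the authors' deposited log2 values. For the combination against atorvastatin at 24 h it went from 0 to 2 under median scaling and without the 2 libraries, with or without the replicate block. The interaction at 48 h went from 0 to 1 without the 2 libraries, with or without the replicate block. From 8 to 48 h, median scaling took control from 3 to 1 and atorvastatin from 5 to 2.

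Leaving out 1 experiment at a time gave counts of 0 to 2 for ATRA at 24 h, 0 to 1 for atorvastatin at 48 h, 1 to 2 for the combination at 24 h and 2 to 5 at 48 h. It gave 0 to 1 for the combination against ATRA at 48 h, and against atorvastatin 0 to 1 at 24 h and 2 to 4 at 48 h. Leaving out experiment 2 cost the most calls, 13 of the 51 results against 8 for experiment 3 and 4 for experiment 1. Both doubted libraries are in experiment 1. Leaving out experiment 2 or 3 thus keeps each of them as 1 of 2 arrays in its group, and leaving out experiment 1 removes both. These counts therefore do not rank how much each experiment carries.

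The replicate block alone changed the call of FASN in the combination at 48 h (-0.51, limma adjusted p = 0.0381) and of ELOVL6 with atorvastatin at 24 h (0.74, 0.024), and no other member's call. Signal over background limits ACACA, G0S2 in cells without ATRA, CD36 and FADS3 in control cells, and PPARG with ATRA.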
